A study of Mus musculus with 8 samples.

Results

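vEC_2 is a cluster of endothelial cells from the aorta-gonad-mesonephros region (AGM) of mouse embryos at embryonic day 10.5, and its members are the cells that carry this name in the deposited cell annotation. It holds 2706 of 15168 annotated cells, and 2706 of the 10929 cells in the 5 endothelial clusters aEC and vEC_1 to vEC_4. CD31+ cells were sorted and profiled by CITE-seq, in which transcripts (as unique molecular identifiers, UMIs) and antibody-derived tags of cell surface proteins are read from one cell. The study compared WT pools (strain label C57BL/6, WT 1 to 5) with Meis1-flox/VE-Cre pools (genotype label Meis1-knockout, called Meis1 cKO 1 to 3 here), all of day 10.5 embryos. In the latter, loxP sites flank exon 8 of Meis1 and Cre is driven by the VE-cadherin (Cdh5) promoter, which is active in endothelial cells. By the study's methods WT embryos lacked Cre, and the purchased Cre line had a strain name other than C57BL/6. Whether strain background differed between the groups was not tested. Deposited cell names begin with Mf_ in WT 5 and with WT_ in WT 1 to 3. Each library was a pool of embryos of 1 genotype, so the p-values below measure the spread between such pools. Of the vEC_2 cells 1562 came from WT and 1144 from Meis1 cKO.

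The endothelium of the AGM lines the dorsal aorta, the cardinal veins and the small vessels around them. Arterial cells rely on VEGF and Notch signalling and on SoxF factors, venous cells on the nuclear receptor Nr2f2 (COUP-TFII), and veins are a main source of new vessels and of lymphatic progenitors. Vein and plexus cells divide actively, whereas arterial maturation goes along with withdrawal from the cell cycle. Precursors of blood stem cells bud from the arterial side.

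The label was checked against the markers given with the cluster. Levels are UMIs per 1000000 UMIs (CPM) of the summed cells of a library, given as lowest, median and highest of 8 libraries. Cdh5, the cadherin of endothelial junctions, was at 313, 336 and 377 CPM in vEC_2, and Pecam1, the CD31 antigen used in the sort, at 129.6, 158 and 179.9 CPM. Nr2f2, the venous factor, was at 102, 132 and 148 CPM. Mean Nr2f2 was 41.3 CPM in aEC, 100.4 in vEC_1, 126 in vEC_2, 226 in vEC_3 and 291 in vEC_4. The vEC_2 libraries overlapped those of vEC_1 and no other cluster. The summed level of 18 pan-endothelial genes was between 5189 and 6178 CPM. Lists of other cell types were low but not at 0. Summed over the list, 9 erythroid genes gave 19.7 to 183 CPM, 11 myeloid genes 7.27 to 35.5 CPM, 10 mesenchymal genes 3.54 to 6.52 CPM (Dcn at 0) and 6 epithelial genes 0.532 to 1.56 CPM. The 11 pre-hemogenic and hemogenic genes, among them Runx1 and Gfi1, gave 38.8 to 48.7 CPM.

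The libraries held 254, 248, 165, 523 and 372 vEC_2 cells in WT 1 to 5 and 430, 288 and 426 in Meis1 cKO 1 to 3. Median UMIs per vEC_2 cell ran from 9794.5 to 33676, and the cluster had the highest median of the 5 endothelial clusters in 8 of 8 libraries. WT 1 to 4 lay between 28252 and 33676 UMIs, WT 5 at 13582.5 and Meis1 cKO between 9794.5 and 15029.5, so depth followed genotype except for WT 5. When each cell was thinned to 5000 UMIs the median number of genes was between 1980 and 2112.5, above vEC_1 and aEC in 8 of 8 libraries and above vEC_3 in 1. Of 33 cell barcodes that occur in more than 1 library, 11 marked vEC_2 cells, and 1 vEC_2 cell was called a doublet. Meis1, the targeted gene, gave 25, 22, 13, 46 and 20 UMIs in vEC_2 of WT 1 to 5 and 17, 9 and 17 in Meis1 cKO 1 to 3. Reads of the 3′ end lie outside the deleted exon and do not show whether it was removed.

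vEC_2 made up 23.96, 24.85, 31.1, 24.5 and 23.8% of the endothelial cells in WT 1 to 5 and 25.8, 19.0 and 29.3% in Meis1 cKO 1 to 3. In WT 3, with the fewest cells, the exact (Clopper-Pearson) 95% interval of the share was 27.2 to 35.2%, which covers counting error only. The ranges of the genotypes overlapped. The mean share was 25.6% ± 3.08 (SD, n = 5) in WT and 24.7% ± 5.22 (SD, n = 3) in Meis1 cKO, a difference of −0.929 points that was smaller than the spread between pools (exact permutation test, two-sided, p = 0.8393, smallest possible p 0.0179).

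vEC_2 had the highest mean share of cells high in genes of G2 and mitosis. Cells were placed in 3 classes, G2/M-high, S-high or low in both, from the share of their UMIs in a G2/M list and an S list, each relative to the endothelial cells of the same library and after thinning to 5000 UMIs. The G2/M-high share of vEC_2 was 56.7, 58.1, 46.7, 58.2 and 55.4% in WT 1 to 5 and 59.9, 58.6 and 49.4% in Meis1 cKO 1 to 3. Its mean of 55.4% ± 4.77 (SD, n = 8) compares with 47.8% ± 3.65 in vEC_3, 35.3% ± 3.15 in vEC_1, 22.6% ± 5.54 in aEC and 14.97% ± 3.36 in vEC_4. vEC_2 was above vEC_1, vEC_4 and aEC in 8 of 8 libraries. It was above vEC_3 in 7 of 8, the exception being Meis1 cKO 3 with a difference of −2.56 points. The clusters were drawn from RNA that includes these genes, so the order is a description and was not tested.

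**Figure D1:**
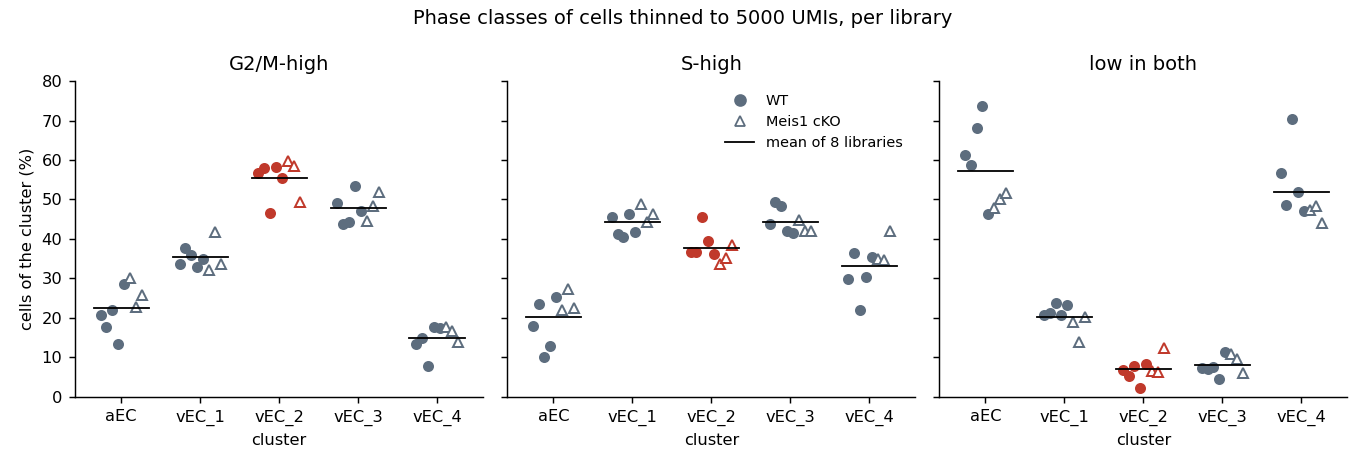
Share of cells (%, y axis) of each endothelial cluster (x axis) that were G2/M-high, S-high or low in both lists, 1 point per library, by genotype, with lines at the mean of 8 libraries and vEC_2 in red. vEC_2 has the highest mean G2/M-high share (55.4%) and between 2.30 and 12.2% of cells in the low class.

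The S-high share of vEC_2 was between 33.6 and 45.5% and below that of vEC_3 in 8 of 8 libraries, with a mean difference of −6.54 points. The share low in both lists was 6.95% ± 2.83 (SD, n = 8) in vEC_2 and 7.96% ± 2.40 in vEC_3, against 20.3% in vEC_1, 51.8% in vEC_4 and 57.2% in aEC. These shares are ranks relative to the endothelial cells of the same library and do not count cycling cells. With the border at 0.5 SD the mean G2/M-high share of vEC_2 was 42.973%. Per 10000 UMIs the median vEC_2 cell had 110 of the G2/M list (median of the libraries, range 105 to 118), against 106 in vEC_3, 84.0 in vEC_1, 45.0 in aEC and 44.0 in vEC_4. A class is a range of a score and not a cell type, and 228 of 2695 vEC_2 cells (8.46%) lay within 0.1 SD of a border. Without thinning the mean G2/M-high share was 58.0%. The genotypes overlapped, with 55.0% ± 4.80 (SD, n = 5) in WT and 55.96% ± 5.70 (SD, n = 3) in Meis1 cKO (difference 0.942 points, exact permutation test, two-sided, p = 0.7857).

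Promoters of 4 mitotic genes that were higher in vEC_2 than in vEC_1 are shown, because many genes of mitosis share promoter letters. In textbook models the CHR element is read by the DREAM and MuvB complexes and CCAAT boxes by NF-Y. The windows run from 250 bases before to 50 after the annotated start, 5′ to 3′ on the strand of the gene (RefSeq, GRCm38.p6, which is mm10). Capitals mark the CHR letters TTTGAA, the CCAAT box letters CCAAT, or the E2F letters (GCGCGAAA or TTTGGCGC or TTTCCCGC), each on either strand, and sites of different motifs may share bases. Kif11 lies at chr19:37376132-37376431, plus strand, Top2a at chr11:99024140-99024439, minus strand, Aurka at chr2:172370521-172370820, minus strand, and Plk1 at chr7:122159185-122159484, plus strand.
Kif11: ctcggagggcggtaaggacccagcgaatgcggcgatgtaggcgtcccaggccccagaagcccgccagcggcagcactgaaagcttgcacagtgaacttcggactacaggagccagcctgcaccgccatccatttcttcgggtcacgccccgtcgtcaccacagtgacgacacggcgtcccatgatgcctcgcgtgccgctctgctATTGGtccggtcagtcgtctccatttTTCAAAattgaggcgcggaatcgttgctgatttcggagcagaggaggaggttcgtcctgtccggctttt
Top2a: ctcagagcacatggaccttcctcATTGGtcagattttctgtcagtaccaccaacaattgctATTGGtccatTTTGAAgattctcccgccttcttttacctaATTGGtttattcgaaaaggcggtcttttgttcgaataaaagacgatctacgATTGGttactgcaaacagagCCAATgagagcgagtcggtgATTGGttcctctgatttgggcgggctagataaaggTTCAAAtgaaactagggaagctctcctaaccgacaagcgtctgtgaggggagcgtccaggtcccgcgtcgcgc
Aurka: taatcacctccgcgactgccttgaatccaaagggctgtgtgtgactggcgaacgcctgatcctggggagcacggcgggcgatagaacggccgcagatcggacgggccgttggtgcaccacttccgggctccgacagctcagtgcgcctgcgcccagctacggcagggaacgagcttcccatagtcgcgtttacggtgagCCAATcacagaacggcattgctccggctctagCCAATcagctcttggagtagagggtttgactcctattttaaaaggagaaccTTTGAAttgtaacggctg
Plk1: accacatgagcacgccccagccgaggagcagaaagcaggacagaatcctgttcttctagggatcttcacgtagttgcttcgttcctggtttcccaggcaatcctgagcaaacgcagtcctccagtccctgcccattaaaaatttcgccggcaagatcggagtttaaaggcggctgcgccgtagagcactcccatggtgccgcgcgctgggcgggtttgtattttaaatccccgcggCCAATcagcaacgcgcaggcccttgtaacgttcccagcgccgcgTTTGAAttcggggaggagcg
Each window holds both CHR and CCAAT letters. In Kif11 the CHR letters begin at −19 and in Top2a at −23 and −179, whereas in Plk1 and Aurka they begin at 30 and 32, counted from the annotated start as 0.

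Of the 56 genes of the G2/M list 48 matched RefSeq, with 53 windows, and the CHR letters stood in 34 of them (64.2%), against 17.6% of the windows of the S list and 17.9% of all 32851 windows. The CCAAT letters stood in 77.4% of the G2/M windows, 67.6% of the S windows and 37.4% of all windows. Both stood together in 52.8, 11.8 and 6.95%, respectively. The E2F letters stood in 5.66% of the G2/M windows, 35.3% of the S windows and 1.84% of all windows. The G2/M genes that were higher in vEC_2 than in vEC_1 held the CHR letters in 66.7% of 24 windows. A match of letters is a description and not a site, and these shares carry no test.

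vEC_2 held more mitotic and fewer arterial transcripts than vEC_1. A gene is counted as different where all 8 libraries differ in 1 direction and the mean within-library difference in log2(CPM + 1) is at least 0.5. This describes the clusters and is no test, since they were drawn from the same RNA, and on this scale the differences of low genes are understated. Of 9043 genes 123 (1.36%) were higher and 142 (1.57%) lower in vEC_2 than in vEC_1, and the median difference of all genes was 0.04. With a minimum difference of 1 there were 1 higher and 27 lower. Of 54 measured G2/M genes 24 were higher and 0 lower, with a median difference of 0.42, while of 43 S genes 0 were higher and 1 lower, with a median of −0.05. Of 13 measured arterial genes 0 were higher and 5 lower, with a median of −0.44.

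Prc1, which bundles microtubules at the spindle midzone, was at 160.1, 204 and 235 CPM in vEC_2 (lowest, median and highest library) and had a mean of 106 CPM in vEC_1. The difference was 0.92 ± 0.16 (log2, SD, n = 8, as for all differences between clusters below), and the groups did not overlap, since the highest vEC_1 library was at 131 CPM. Kif11, the motor that pushes spindle poles apart, was at 69.8, 81.9 and 96.5 CPM against a mean of 45.3, a difference of 0.86 ± 0.16, also without overlap. Aspm, which organizes spindle poles and, like Prc1, stood outside the list, was higher by 0.90 ± 0.18. Top2a, the topoisomerase that untangles sister chromatids, was higher by 0.67 ± 0.11, and Mki67, which coats mitotic chromosomes, by 0.70 ± 0.12. The kinases Aurka and Plk1, which drive entry into mitosis, were higher by 0.73 ± 0.13 and 0.60 ± 0.10.

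Other genes higher in vEC_2 than in vEC_1 were not mitotic. Ccnd2, a D-type cyclin of G1, was at 114, 153 and 174 CPM in vEC_2 against a mean of 87.9 in vEC_1, a difference of 0.77 ± 0.24 without overlap. Bmp4, a BMP ligand, was higher by 0.81 ± 0.27, Foxc2, a forkhead factor of venous and lymphatic endothelium, by 0.80 ± 0.39, and Gap43, a growth-associated membrane protein, by 0.73 ± 0.11. These 4 genes were higher still in vEC_3. Prl3b1, a gene of the placental prolactin family, was higher by 0.85 ± 0.22, but its reads may be shared with near-identical members of that family.

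The genes with the largest differences below vEC_1 were high in aEC. Vwa1, a matrix protein, was at 12.5, 15.5 and 23.4 CPM in vEC_2 against a mean of 71.8 in vEC_1 and 232 in aEC, with a difference of −2.08 ± 0.22 from vEC_1. Foxq1, a forkhead factor, was at 6.39, 8.12 and 15.8 CPM against 38.5 in vEC_1 and 156 in aEC. Car2, a carbonic anhydrase, was at 10.5, 20.9 and 27.5 CPM against 78.6 and 144. For these 3 genes the 8 vEC_2 libraries lay below every vEC_1 library. Gja4 (connexin 37), a gap junction gene of arteries, differed by −2.52 ± 0.53, Hey1, a Notch target in arteries, by −1.83 ± 0.25, and Jag1, a Notch ligand, by −0.87 ± 0.16. Cdkn1a (p21), an inhibitor of cyclin-dependent kinases, was at 4.96, 7.58 and 10.9 CPM against 25.9 in vEC_1 and 183 in aEC. Nkd1, a Wnt feedback inhibitor, and Slc7a5, an amino acid transporter, differed by −1.33 ± 0.33 and −1.25 ± 0.37.

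To separate cell cycle from identity, the comparison was repeated within the phase classes and averaged over them with equal weights. The low class thus weighed as much as the others, although it held only 2.3 to 12.2% of the vEC_2 cells of a library. A class with too few cells in a library was left out there, so the average did not always cover the same classes. The low class could be compared with vEC_3 in 7 libraries, and the G2/M-high class with vEC_4 in 7. The S-high class could not be compared with aEC in WT 3, where it held 10% of 50 aEC cells. Phase-matched, 96 genes (1.06%) were higher and 168 (1.86%) lower than in vEC_1, and 191 of the 265 genes counted without matching (72.1%) were counted again. Of 13 arterial genes 7 were lower within classes, with a median of −0.65. The matched differences of Vwa1, Foxq1 and Gja4 were −2.43, −2.35 and −2.69, and those of Ccnd2 and Bmp4 0.93 and 0.88. The G2/M list kept a median of 0.34, with 18 of 54 genes higher, so the classes narrowed but did not equalize mitotic transcripts. How far cells had gone within a class cannot be told apart from other differences here.

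**Figure D2:**
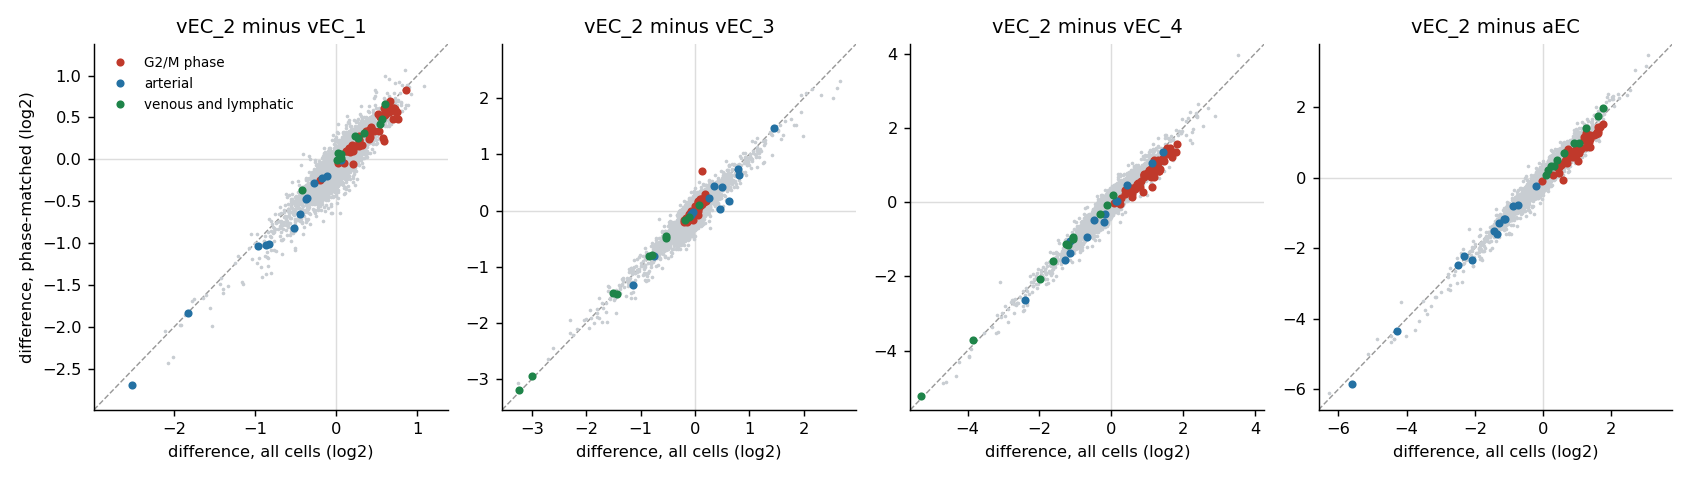
Mean within-library difference of each of 9043 genes between vEC_2 and another cluster in log2(CPM + 1), with all cells (x axis) and phase-matched (y axis), 1 panel per cluster, the dashed line at equal values and colours for the gene lists. Matching took the median of the G2/M list from 1.12 to 0.80 against vEC_4 and from 0.97 to 0.73 against aEC, and that of the venous and lymphatic list from −1.20 to −1.14 against vEC_4.

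Between vEC_2 and vEC_3 no gene of the G2/M or S list met the rule, while most measured venous and lymphatic genes were lower in vEC_2. Of 9043 genes 188 (2.08%) were higher and 278 (3.07%) lower in vEC_2, with a median of −0.03 over all genes. Of 54 G2/M genes and 43 S genes 0 were counted in either direction, and their medians were 0.05 and −0.11. Of 11 measured venous and lymphatic genes 0 were higher and 8 lower, with a median of −0.79, and of 13 arterial genes 5 were higher and 2 lower, with a median of 0.36.

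Prox1, the master factor of lymphatic fate, was at 1.95, 6.43 and 8.75 CPM in vEC_2 against a mean of 64.7 in vEC_3, a difference of −3.23 ± 0.74 without overlap. Lyve1, a hyaluronan receptor of lymphatic and venous endothelium, reached 2.82 CPM in the highest vEC_2 library and 19.4 in the highest of vEC_3. Dab2, an endocytic adaptor, and Stab2, a scavenger receptor of sinusoids, differed by −1.51 ± 0.24 and −1.43 ± 0.38. Nr2f2 itself was lower with a difference of −0.84 ± 0.07 and so was Nrp2, a coreceptor of VEGF signalling in veins and lymphatics, with −0.79 ± 0.14. Not all of the list was lower, as Aplnr, Flt4 and Tfpi differed by 0.08 ± 0.08, −0.18 ± 0.20 and −0.10 ± 0.11. Bmp4 was at 9.13, 14.0 and 27.7 CPM against 66.1 in vEC_3, a difference of −2.03 ± 0.22 without overlap. Of 5 measured genes that respond to blood flow 4 were lower: endothelin Edn1 (−1.77 ± 0.39), the factors Klf4 (−1.17 ± 0.22) and Klf2 (−0.57 ± 0.19), and thrombomodulin Thbd (−0.86 ± 0.23).

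Vwa1 (2.67 ± 0.26), Foxq1 (2.62 ± 0.23) and Car2 (2.32 ± 0.46), which were below vEC_1, were above vEC_3, again without overlap. Kcne3, a potassium channel subunit of tip cells, was at 28.5, 53.8 and 75.4 CPM in vEC_2 against a mean of 12.4 in vEC_3, and the libraries of the clusters overlapped although the order held within each. Hbegf, a ligand of the EGF receptor, was at 36.7, 44.0 and 51.3 CPM against 12.3, and Fzd10, a Wnt receptor, at 44.5, 64.5 and 79.4 CPM against 20.8, both without overlap. For Kcne3 and Fzd10 the differences from vEC_1 were only −0.19 ± 0.43 and −0.02 ± 0.09. Cdh2 (N-cadherin), which joins endothelium to mural cells, differed by 1.65 ± 0.36 from vEC_3 and by −0.89 ± 0.20 from vEC_1. Sox17, a SoxF factor of arteries, was higher than in vEC_3 by 0.80 ± 0.28, Dll4, the arterial Notch ligand, by 1.45 ± 0.57 and Hey1 by 0.81 ± 0.27. Of 10 tip cell genes 5 were higher, among them Nid2, a basement membrane nidogen, by 1.15 ± 0.24, and Sparc, a matrix glycoprotein, by 0.56 ± 0.09. Of 9 genes of hypoxia and glycolysis 1 was higher, the glucose transporter Slc2a1 (GLUT1), by 1.16 ± 0.18.

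Phase-matched, 124 genes (1.37%) were higher and 262 (2.9%) lower than in vEC_3, and 322 of 466 genes (69.1%) were counted again. The matched differences were −3.20 for Prox1, −1.96 for Bmp4, 2.31 for Vwa1 and 2.16 for Kcne3. The venous and lymphatic median was −0.80, with 6 of 11 genes lower. Of 13 arterial genes 2 remained higher, Sox17 (0.74) and Hey1 (0.63), and the list median was 0.18.

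**Figure D3:**
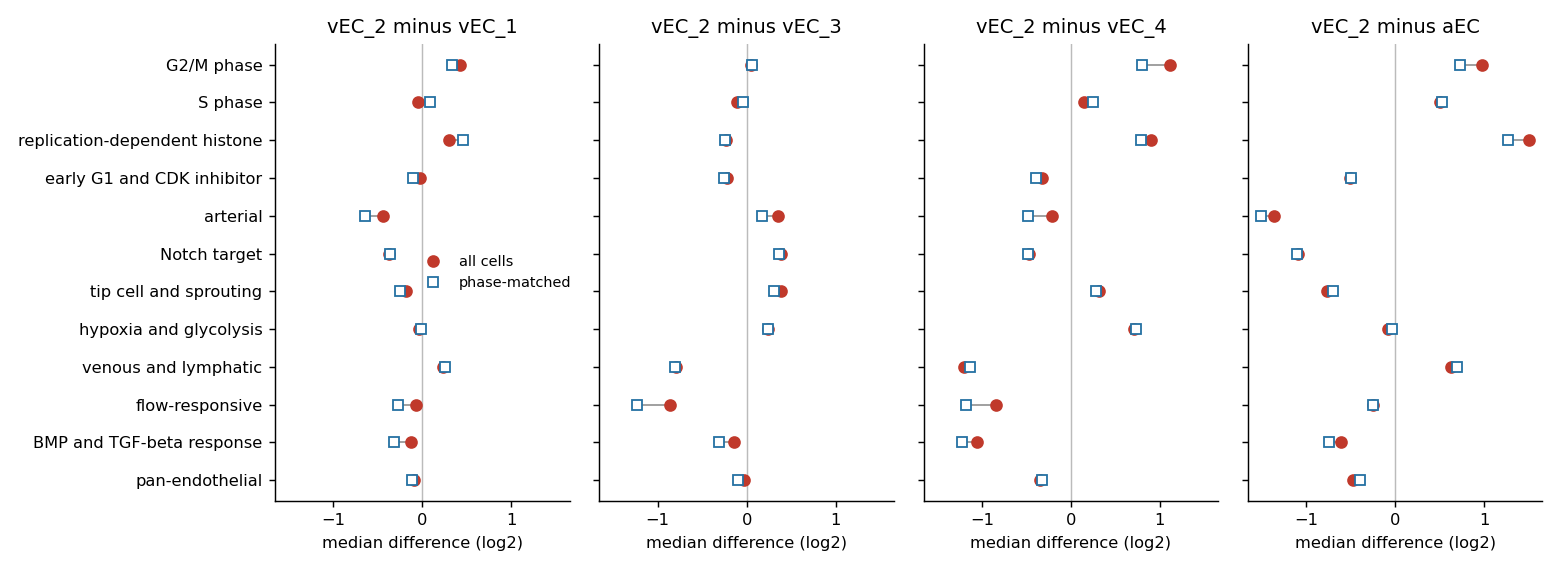
Median difference (log2, x axis) between vEC_2 and each other cluster for the gene lists (y axis), with all cells and phase-matched, 1 panel per cluster. The G2/M median is 0.42 against vEC_1 and 0.05 against vEC_3, while the venous and lymphatic median is 0.23 against vEC_1 and −0.79 against vEC_3.

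vEC_2 lay between vEC_1 and vEC_3 for most genes that separate these clusters. This is a description and was not tested, since the genes were picked for that separation and no expected share was worked out. By the rule used above 960 genes (10.6%) differed between vEC_1 and vEC_3, and vEC_2 lay between them for 863 (89.9%). This held for 354 of 374 genes higher in vEC_1 and for 509 of 586 higher in vEC_3. The median gene stood 60.3% of the way from vEC_3 to vEC_1. In 59 genes vEC_2 was beyond vEC_1 and in 38 beyond vEC_3. Bmp4 followed this order, with means of 1.46, 8.61, 15.2, 66.1 and 108 CPM in aEC, vEC_1, vEC_2, vEC_3 and vEC_4, and Slc2a1 the opposite one, with 558, 289, 172, 77.0 and 74.1 CPM. The mitotic genes stood at the level of vEC_3 instead, Prc1 with a difference of 0.03 ± 0.16 and Top2a of −0.08 ± 0.08.

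**Figure D4:**
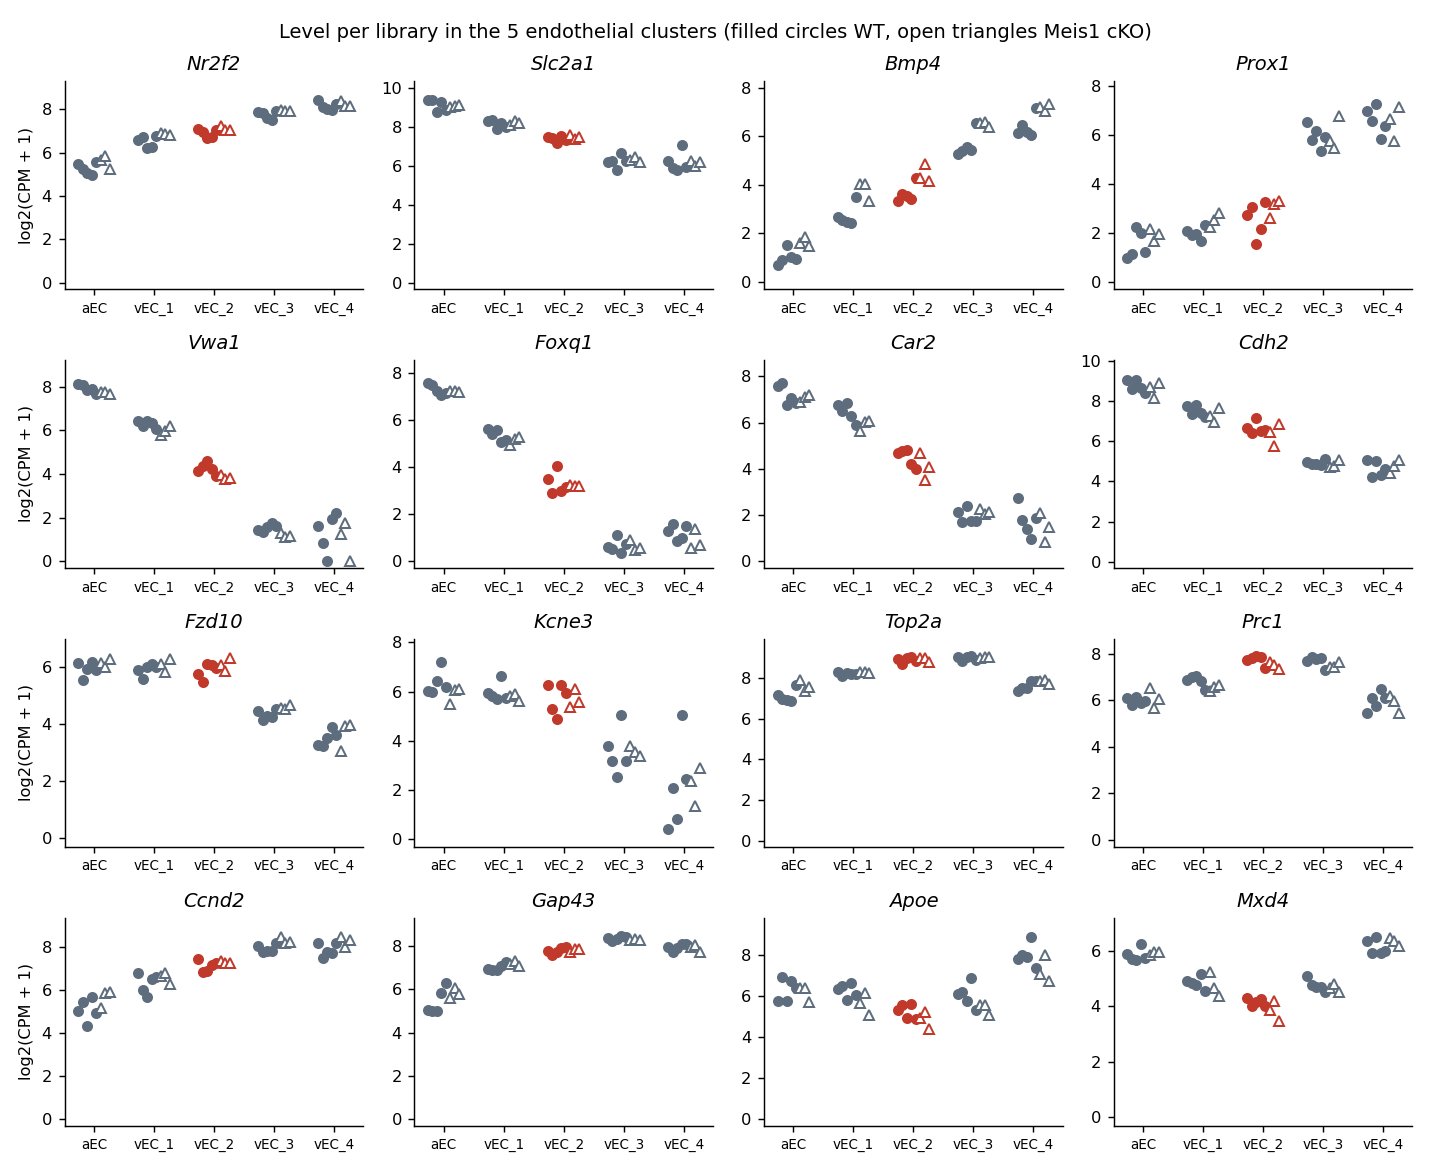
Level of 16 genes, as log2(CPM + 1) (y axis), in each library of the 5 endothelial clusters (x axis), by genotype. Mean Nr2f2 and Bmp4 in vEC_2 lie between vEC_1 and vEC_3, as do Slc2a1, Vwa1, Foxq1 and Cdh2 in the opposite order, while Prc1 differs by 0.92 ± 0.16 from vEC_1 and by 0.03 ± 0.16 from vEC_3 (log2).

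Against vEC_4, 673 genes (7.44%) were higher and 827 (9.15%) lower in vEC_2, and phase-matched 573 (6.34%) and 784 (8.67%), with 75.5% of the genes counted again. With TMM-scaled CPM the split turned, with 980 higher and 599 lower. Of 54 G2/M genes 46 were higher with a median of 1.12, and phase-matched 36 with a median of 0.80. Of 11 venous and lymphatic genes 8 were lower with a median of −1.20. Lyve1 was at 0.179, 0.692 and 2.82 CPM in vEC_2 against a mean of 78.2 in vEC_4, a difference of −5.29 ± 0.43 without overlap. Fabp4, a fatty acid carrier of venous and capillary endothelium, differed by −4.67 ± 0.71 and Edn1 by −3.96 ± 0.58. Cdkn1c (p57), an inhibitor of cyclin-dependent kinases, was at 125, 169 and 206 CPM against 493, whereas Ccnd1, a D-type cyclin, was higher by 1.19 ± 0.22. Fzd10 (2.40 ± 0.32) and Kcne3 (3.52 ± 1.39) were higher, as against vEC_3. Of 5 genes of BMP response 3 were lower, Id2 (−1.25 ± 0.15) and the pathway inhibitors Smad6 (−1.42 ± 0.45) and Smad7 (−1.06 ± 0.31).

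Against aEC, 1109 genes (12.3%) were higher and 915 (10.1%) lower, and phase-matched 901 (9.96%) and 853 (9.43%), with 76.6% counted again. Of 13 arterial genes 12 were lower with a median of −1.36. Gja4 was at 0.354, 1.75 and 3.69 CPM in vEC_2 against a mean of 143 in aEC, a difference of −5.60 ± 0.63 without overlap, and Hey1 differed by −4.28 ± 0.49. Igfbp7, a secreted IGF-binding protein, differed by −6.28 ± 0.69 and Cdkn1a by −4.35 ± 0.55. Of 10 tip cell genes 6 were lower, among them the proteoglycan Esm1 (−4.46 ± 0.46). Of 54 G2/M genes 47 and of 43 S genes 19 were higher, with medians of 0.97 and 0.51. Of 11 replication-dependent histone genes, expressed in S phase, 9 were higher and 1 lower, with a median of 1.51, although their reads may be shared between copies. Gap43 was higher by 2.22 ± 0.40 and Myc, a growth-related transcription factor, by 2.05 ± 0.64. The matched differences were −5.84 for Gja4 and −4.56 for Cdkn1a.

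Few genes set vEC_2 apart from all 4 other clusters at once. Higher than in each of them was 1 gene (0.0111%), Rsad2 (viperin), an interferon-induced antiviral gene, with 19.9, 23.3 and 32.2 CPM in vEC_2 and means of 15.2, 16.03, 5.80 and 6.46 CPM in vEC_1, vEC_3, vEC_4 and aEC. After phase matching it was higher in 7 of 8 libraries against vEC_1 and against vEC_3 and no longer met the rule. Lower than in each were 6 genes (0.0663%), Apoe, Mxd4, Smim14, Ypel3, Fbxl20 and Pdcd4. Apoe, an apolipoprotein, was at 20.3, 33.5 and 47.9 CPM in vEC_2 and had means of 68.5, 60.1, 234 and 80.3 CPM in vEC_1, vEC_3, vEC_4 and aEC. Mxd4, a MAX partner that opposes MYC, had a mean of 15.6 CPM against 27.6, 25.6, 73.9 and 58.0 CPM. Pdcd4, an inhibitor of translation, differed by −0.51, −0.79, −2.07 and −1.03. Phase-matched, 7 genes were lower than in all 4, Fbxl20 having dropped out and Ddit4, a stress-induced inhibitor of mTORC1, and Atat1, a tubulin acetyltransferase, having come in. These genes were named from this count after their values were seen.

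Antibody tags were not used to draw the clusters, and their log2 ratio of mean counts per cell, vEC_2 over the mean of the other 4 clusters of the library, could be tested. WT 4 had no tag counts, and CD44 was missing in WT 1 to 4. The ratio was 0.01 ± 0.04 for CD117 (Kit), −0.10 ± 0.35 for CD41, 0.03 ± 0.07 for CD43, 0.04 ± 0.07 for CD45.2 and 0.02 ± 0.10 for CD27 (SD, n = 7), and −0.03 ± 0.18 for CD44 (SD, n = 4). By exact sign-flip permutation tests, two-sided, 0 of 6 tags passed (adjusted p = 0.75 for each, smallest unadjusted p possible 0.0156 with 7 libraries). With 4 libraries the CD44 test could not pass. Per RNA UMI, of which vEC_2 cells have the most, the 5 tags with 7 libraries were lower, from −0.30 for CD45.2 to −0.43 for CD41 (exact permutation, adjusted p = 0.0187 for each). This ratio divides by RNA depth and cannot tell a lower tag level from more RNA.

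The mean over 4 clusters held an order, which was noticed in the values and was not tested. The mean CD45.2 count per vEC_2 cell was 57.2, 75.8, 34.8 and 9.31 in WT 1, 2, 3 and 5 and 12.2, 8.28 and 4.64 in Meis1 cKO 1 to 3. It was above vEC_1 by 0.44 ± 0.10 and differed from vEC_3 by −0.28 ± 0.08 (log2, SD, n = 7). CD45.2, CD43 and CD27 lay between vEC_1 and vEC_3 in 7 of 7 libraries, CD117 in 6, CD41 in 4 and CD44 in 3 of 4. The median CD45.2 count of the libraries was 12.2 in vEC_2, 222 in myeloid cells and 52.0 in erythro-myeloid progenitors. In cells of the endothelial-to-hematopoietic transition it was 8.36. Not every tag was lower in vEC_2 than in blood cells, as the median CD27 count was 3.67 in vEC_2, 4.36 in myeloid cells and 2.13 in erythro-myeloid progenitors.

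Within vEC_2, 2 of 10669 genes (0.0187%) passed an adjusted p of 0.1 between genotypes (edgeR quasi-likelihood test on summed counts, Benjamini-Hochberg), Stfa1 and Gm7120, both higher in Meis1 cKO. By the same test 1527 of the 10669 had an unadjusted p under 0.05, a share above the 0.05 that chance alone gives. This excess was not kept with depth in the model, where 242 of 10669 genes had such a p, a share below 0.05. With 1 library left out the count ran from 1028 of 10889 to 2276 of 10691. In CPM normalised by TMM, Meis1, a homeobox gene, was at 3.27, 2.90, 2.35, 2.61 and 3.84 in WT 1 to 5 and 3.01, 3.06 and 2.77 in Meis1 cKO 1 to 3, with a log2 fold change of −0.01 ± 0.25 (SE, edgeR adjusted p = 0.995). Meis1 transcripts were thus rare in the cluster in both genotypes. Stfa1, a stefin protease inhibitor, was at 0.262, 0.5264, 0, 0.170 and 0.768 in WT 1 to 5 and 2.48, 4.41 and 3.75 in Meis1 cKO 1 to 3. Its log2 fold change was 3.43 ± 0.48 (SE, edgeR adjusted p = 0.0722), but it rests on 13 UMIs in WT and 50 in Meis1 cKO, and its reads may be shared with other stefin A copies. Gm7120, a predicted gene, was at 0.393, 0.5264, 0.542, 0.284 and 2.30 in WT 1 to 5 and 4.61, 5.09 and 19.4 in Meis1 cKO 1 to 3, a log2 fold change of 3.96 ± 0.59 (SE, edgeR adjusted p = 0.0722). Both genes had no overlap of the groups, which was seen in 797 genes (7.47%).

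Depth and the sum of the myeloid genes differed between the genotypes, but not in every library. Stfa1 was at 63.0 to 301 CPM in the myeloid cells of WT and at 635 to 801 CPM in those of Meis1 cKO. Gm7120 was at 0.157 to 15.8 CPM in the myeloid cells of WT and at 3.77 to 5.36 CPM in those of Meis1 cKO, which overlap. The 11 myeloid genes summed in vEC_2 to 12.04, 10.9, 7.27, 9.64 and 16.7 CPM in WT 1 to 5 and 30.2, 35.5 and 16.4 CPM in Meis1 cKO 1 to 3, and their part in the Stfa1 and Gm7120 values was not tested. Neither gene passed with depth as a covariate, where the log2 fold change was 3.95 for Gm7120 and 2.29 for Stfa1, or with WT 5 as the only WT library, where it was 2.17 and 2.12. Stfa1 kept its call in 2 of 8 fits that left out 1 library (edgeR adjusted p between 0.000281 and 0.40) and Gm7120 in 2 of 8 (0.000223 to 0.354), with log2 fold changes of 3.09 to 3.77 and 2.84 to 4.65, and without WT 5 1002 genes passed. Depth and genotype cannot be told apart in WT 1 to 4.

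**Figure D5:**
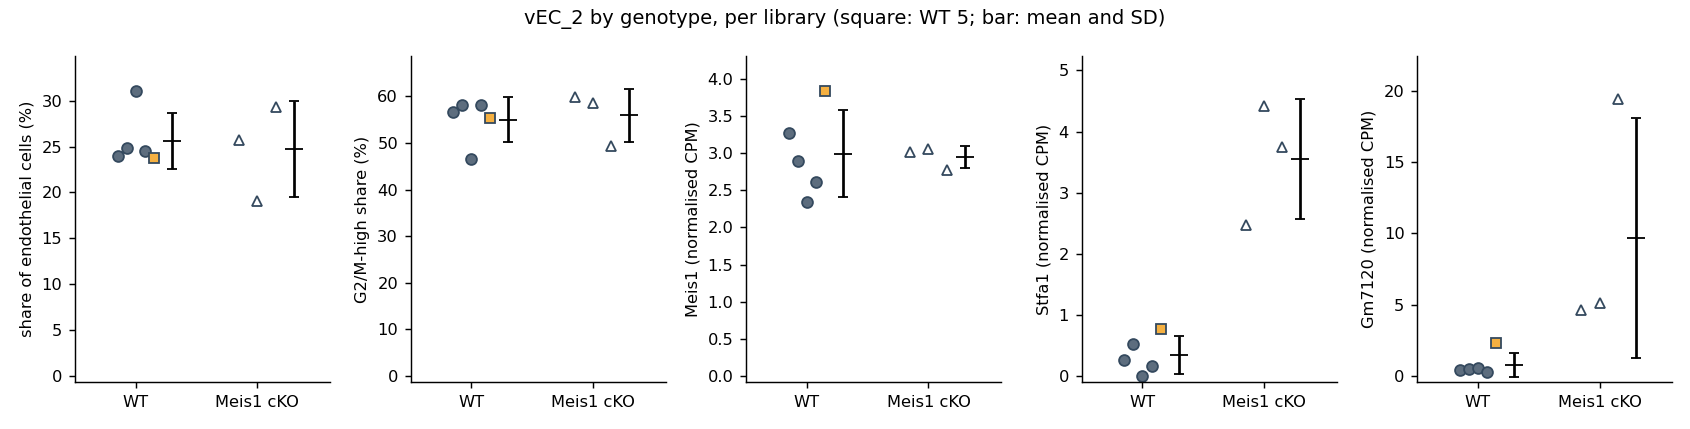
vEC_2 by genotype (x axis), 1 point per library, with mean and SD. The y axes give the share of endothelial cells (%), the G2/M-high share (%), and Meis1, Stfa1 and Gm7120 in normalised CPM. The shares and Meis1 overlap between genotypes, whereas Stfa1 is at most 0.768 in WT and at least 2.48 in Meis1 cKO.

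No member of the gene lists described above passed the main genotype test in vEC_2. Under other settings some did, such as Mecom (arterial list) after thinning to 5000 UMIs, and Apln (tip cell list) and Hist1h4d in the low class. Of 54 G2/M genes 0 passed, with a median log2 fold change of −0.06, and the medians were −0.11 for 43 S genes, −0.07 for 13 arterial genes and 0.13 for 10 venous and lymphatic genes, beside 0.004 for all genes. Nr2f2 was at 129, 119.6, 104, 104 and 135 normalised CPM in WT 1 to 5 and 146, 134 and 140.3 in Meis1 cKO 1 to 3, groups that overlap (log2 fold change 0.25 ± 0.10, edgeR adjusted p = 0.29). The histone list had a median of −1.34 over 11 genes. Hist1h1b, a linker histone gene, was at 638, 688, 1020 and 1160 normalised CPM in WT 1 to 4, but at 152 in WT 5 and 204, 192 and 223 in Meis1 cKO 1 to 3. It divided the deep from the shallow libraries and not the genotypes (edgeR adjusted p = 0.198). In the edgeR fit on cells thinned to 5000 UMIs, however, Hist1h1b, Hist1h1c, Hist1h1e and Hist1h4d were among the 26 genes that passed between genotypes. The part of depth in the histone values was not tested beyond this.

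The effect of genotype in vEC_2 was set against that in the other clusters by the interaction of cluster and genotype, with the library in the model. The interaction passed in 0 genes (0%) against vEC_1, 2 (0.018%) against vEC_3, 0 (0%) against vEC_4 and 0 (0%) against aEC by edgeR. An unadjusted p under 0.05 was seen in 609 of 10894, 549 of 11105, 471 of 10875 and 609 of 10811 genes. These shares lie near the 0.05 that chance alone gives. The genes that passed against vEC_3 were Gm7120 (2.77 ± 0.57, log2, SE, edgeR adjusted p = 0.0754) and Dqx1, a helicase-like gene (1.64 ± 0.33, edgeR adjusted p = 0.0754). Dqx1 was at 3.18, 4.79, 26.8, 7.74 and 9.95 CPM in vEC_2 of WT 1 to 5 and 11.3, 7.43 and 23.2 CPM in Meis1 cKO 1 to 3, so its groups overlapped within the cluster. Stfa1 had an interaction of 0.28 ± 0.66 against vEC_3 (edgeR adjusted p = 0.998).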

How the data were processed

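The authors deposited raw UMI counts of 28014 genes and 6 antibody tags in 15168 cells, without normalization, and a table of the library and cluster of each cell. The submitters' processing notes name Cell Ranger 3.0.2 and mm10. By the study's methods cells with few detected genes or a high mitochondrial share had been removed, and the fewest genes in a cell was 2001.

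Counts were summed per library and cluster, or per library, cluster and phase class where both clusters had at least 10 cells. Genes with a mean of at least 5 CPM were compared within libraries with a pseudocount of 1 CPM. A cell was low where the z scores of both lists were below 0, and otherwise took the class of the higher score. For genotype (5 pools against 3) and its interactions with cluster, edgeR 4.0.16 (R 4.3.3) fitted two-sided quasi-likelihood tests after filterByExpr and TMM. Shares and tags were tested by exact permutation in Python 3.11.15 (numpy 2.4.6, scipy 1.17.1, pandas 2.3.3). Scrublet in Scanpy 1.11.5 called 83 doublets (0.547%), which were kept. Tests across genes were checked on simulated counts.

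The members, lists and tests were chosen with earlier results of these data known. Named genes are list members, up to 8 (vEC_1, vEC_3) or 5 (vEC_4, aEC) genes with the largest differences in each direction among those counted with 20 CPM or more in the higher cluster, unmatched or phase-matched, every gene that passed the genotype test, and Meis1. A gene that this rule names is not reported here. Others are said to be chosen after their values were seen. Alternatives were DESeq2 1.42.0, RLE factors, other filters, pseudocounts, thresholds, thinning, class borders and libraries left out. The genotype test on libraries 1 to 3 without a block, and on G2/M-high cells, was added after the data had been seen.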

Additional observations from a re-analysis of the deposited data

Results flagged for a closer look

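Among the 5 WT libraries, 59 sets of vEC_2 values were checked for a library far from the other 4. In 7 of them 1 library stood apart, and chance alone gives about 1 in 20. WT 3 had the highest share of vEC_2 among endothelial cells, 31.073% against 23.8 to 24.85% in the others, and the lowest G2/M-high share, 46.667% against 55.4 to 58.2%. WT 5 had the lowest median UMIs per cell, 13582.5 against 28252 to 33676. In CPM before TMM, Bmp4 was at 18.402 in WT 5 against 9.13 to 11.3, Edn1 at 19.109 in WT 4 against 4.66 to 8.03, Gm7120 at 2.253 in WT 5 against 0.289 to 0.532, and Dqx1 at 26.757 in WT 3 against 3.18 to 9.95.

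The effect of genotype differed between vEC_2 and vEC_3 by 1.64 (log2) for Dqx1 and by 2.77 for Gm7120, by a test of the interaction. Gm7120 was at 7.40 CPM in vEC_3 of WT 5 and 2.25 CPM in vEC_2 of that library, whereas in Meis1 cKO 3 it was at 2.21 and 18.3 CPM.

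The deposited table has a row named CreERT2, which no comparison used. It held 7 UMIs in vEC_2 of the Meis1 cKO libraries (4, 0 and 3) and 0 in those of WT. A row named tdTomato held 0 in every vEC_2 library.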

How the results depend on the processing

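Among alternative values of the comparisons 209 kept their direction and side of the threshold, or a count within 1.5 times, 44 moved, 15 turned and 1 passed a threshold. Counts of genes that differ from vEC_1 (265), vEC_3 (466), vEC_4 (1500) and aEC (2024) were 28 (1 higher, 27 lower), 146, 423 and 565 with a minimum difference of 1, 156 and 308 with a pseudocount of 5 CPM against vEC_1 and vEC_3, and 735 against vEC_3 without a filter on low values. With 1 library left out they were 258 to 276, 456 to 485, 1466 to 1568 and 2016 to 2129, and phase-matched 266 to 306, 403 to 427, 1384 to 1452 and 1772 to 1871. Of the alternative values of single named genes 1511 kept their call, 46 lost it and 0 turned.

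The count of 2 genes that passed between genotypes in vEC_2 became 70 with DESeq2, 249 without a filter, 26 after thinning to 5000 UMIs, 8 in the low class, 0 in the G2/M-high class, and 0 at an adjusted p under 0.05, with depth as a covariate or with WT 5 as the only WT library. Stfa1 and Gm7120 fell below the count filter after thinning, in the low class and in the G2/M-high class, so these fits did not test them. With a replicate block on libraries 1 to 3 there were 1283, and 674 on the same libraries without it, both without WT 4 and 5. The same-numbered libraries correlated at −0.076, 0.125 and 0.211 in their deviations, so the numbers were not taken to pair them, and 2 of 3 Meis1 cKO libraries correlated best with their own number. Leaving out 1 library gave 0 to 1002, the latter without WT 5, and 0 without WT 1 or 2 or Meis1 cKO 2 or 3. The interactions (0, 2, 0 and 0 genes against vEC_1, vEC_3, vEC_4 and aEC) became 2, 14, 22 and 33 without a filter, 0 against vEC_3 at 0.05, 5 against aEC with RLE factors, and 0 to 1, 0 to 7, 0 to 4 and 0 to 28 with 1 library left out, with 4 and 28 without WT 5, 7 without WT 3 and, against vEC_3, 0 without WT 1 or Meis1 cKO 3. The cause was not tested.

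The difference in the share of vEC_2 turned to 0.925 points with WT 5 as the only WT library and ran from −3.23 to 1.908 with 1 left out, positive without WT 3 or Meis1 cKO 2. The G2/M-high share was 42.973% with a border at 0.5 SD and 54.725 to 56.61% with 1 left out. Its difference by genotype was −0.504 with that border, −0.073 with part of each list and −1.144 to 4.214 with 1 left out, negative without WT 3 or Meis1 cKO 1 or 2. Per RNA UMI the tag ratios were −0.334 (CD117), −0.43 (CD41), −0.313 (CD43), −0.3 (CD45.2) and −0.315 (CD27), each with an adjusted p of 0.0187 by exact permutation. They divide by RNA depth, which was highest in vEC_2, and cannot tell a lower tag level from more RNA. As a share of all tags CD117 was −0.018. With 1 library left out CD41 ran from −0.146 to 0.026 and CD44 from −0.113 to 0.031, both positive without WT 5.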
